A study of Drosophila melanogaster with 4 samples.

Results

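Among the FlyBase transcripts on a 2-colour Agilent array, 98 of 15003 (0.653%) had a spot signal well above background in Hdac1 mutant larvae on all 4 arrays and in wild type larvae on none. They were chosen by that reading itself. Each transcript was represented by its brightest probe, and the scanner software's mark for a signal well above background had to be on in the mutant channel 4 times of 4 and in the wild type channel 0 times. The mirror image, a wild type signal past that mark on all 4 arrays and a mutant signal on none, held for 148 transcripts (0.986%). Since the mark of both channels chose the 98 transcripts, their intensities and ratios are given as a description, without a test.

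The arrays compared RNA of whole 3rd instar larvae of Drosophila melanogaster raised at 25 °C. Control larvae were wild type Oregon-R, and their cDNA carried the green dye Alexa Fluor 555. Mutant larvae had the genotype Hdac1[303]/Hdac1[def8] on the same Oregon-R background, and their cDNA carried the red dye Alexa Fluor 647. Each of the 4 biological replicates was 1 array with both RNAs, and the dyes had the same orientation on every array, so dye and genotype cannot be told apart. RNA came from whole larvae, in which fewer cells of a type and less RNA per cell cannot be told apart. The number and sex of the larvae in a sample are not given in the labels.

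Hdac1, known in flies as Rpd3, encodes a histone deacetylase. It removes acetyl groups from lysines of histone tails and works as the catalytic subunit of corepressor complexes such as those built on Sin3 and CoREST. Deacetylated chromatin is typically less accessible to the transcription machinery, and loss of such an enzyme is widely used to ask which silent genes become transcribed. The comparison of channels here concerns only whether an RNA signal passed a detection mark. Whether a silent gene became transcribed was not tested. A reference gene table paired 8 of the 15003 transcripts with a gene symbol and 0 of the 98, so the transcripts are given by FlyBase transcript identifier, and no function is assigned to them. For the same reason larval tissue markers were not checked among them. The names also linked 0 probes to Hdac1 itself, whose own transcript was not analysed here.

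The 4 arrays were read from 1 slide in 1 scan. Median intensities over all 43692 non-control spots of an array ran from 1490 to 1970.5 in the mutant channel and from 316 to 504.25 in the wild type channel, so the red channel was the brighter one in raw units. Between 84.0% and 86.8% of spots were well above background in the mutant channel, and between 84.8% and 86.5% in the wild type channel. Over the whole table, 8421 of 21954 targets (38.4%) were called higher and 8159 (37.2%) lower in the mutant by limma with Benjamini-Hochberg adjustment at a threshold of 0.05. A transcript that passed in 1 direction was therefore common on these arrays, while 1 that left the detectable range in a channel was rare. Both channels carried the mark on all 4 arrays for 13285 of the 15003 transcripts, and neither channel on any array for 477.

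The 98 transcripts were dim. Their mean mutant intensity ran from 187 to 3438 with a median of 296, against a median of 3136 over all 15003 transcripts. All but 1 of them (97 of 98) lay below the median of all transcripts, and their own median stood at the 12.8th percentile. By brightness, 7 had a mean mutant intensity under 200, 56 lay from 200 to 400, 24 from 400 to 800 and 11 at 800 or more. Of all transcripts well above background in the mutant on 4 arrays, the share that belonged to the 98 was 14.3% under 200 and 0.0982% at 800 or more. The 148 transcripts seen in the wild type alone occupy the other edge of the same dim corner in the plot of the 2 channels.

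**Figure D1:**
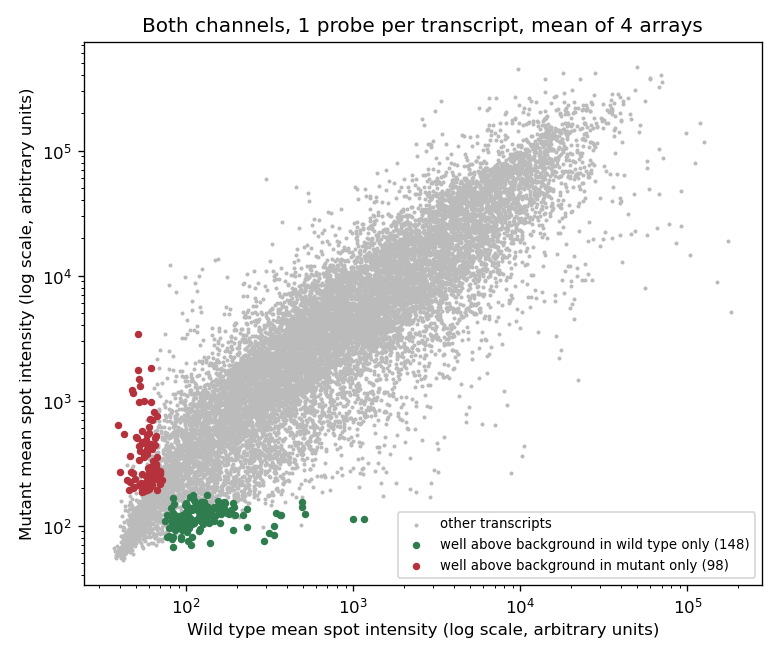
Mean spot intensity over 4 arrays in the wild type channel (x axis) and the mutant channel (y axis), both on log scales in arbitrary units, for 1 probe of each of the 15003 transcripts. The 98 transcripts well above background in the mutant only (red) lie at the left edge, most of them between 200 and 800 on the y axis, and the 148 seen in the wild type only (green) lie along the lower edge.

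FBtr0072080 was the brightest of the 98. Its mutant intensities were 3336.5, 3225.75, 3178.5 and 4009.5 on replicates 1 to 4, and its wild type intensities were 53, 49, 50 and 54. All 4 mutant values lay within 1.26-fold of each other, and the wild type values lay below the 95th percentile of the negative control spots on all 4 arrays. The wild type signal was nevertheless significantly above local background on all 4 arrays. After normexp background correction and loess its log2 ratio was 3.52 ± 0.16 (SD, n = 4), a measured mean of 11.5-fold higher in the mutant. A wild type spot that is not well above background gives only an upper limit on the level there. A bound built on that limit equalled the measured mean for 97 of the 98 transcripts. The folds given are therefore measured means, and single arrays can lie below them. They hold within this scaling only. Median centring gave a lower ratio for 97 of the 98 transcripts, while FBtr0072080 stood at 3.58 with it.

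FBtr0273419 had mutant intensities of 1327.5, 2040.5, 1745.5 and 1945.25 and wild type intensities of 41, 45, 60.5 and 60.25. Replicate 1 was the lowest in both channels. The log2 ratio was 2.79 ± 0.17, a measured mean of 6.92-fold higher in the mutant. FBtr0100350 had 1747, 1385.5, 1366 and 1508 in the mutant and 51, 50, 57 and 51 in the wild type. It was the steadiest of the bright transcripts after FBtr0072080, with a highest over lowest mutant value of 1.28 and a log2 ratio of 2.66 ± 0.11. Its wild type signal was significantly above local background on 1 of 4 arrays only.

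FBtr0299879 was second in mutant signal, with 2333, 1528.5, 1182 and 2188, against 61, 55, 61 and 67.5 in the wild type. Replicates 1 and 4 were the high ones, and the log2 ratio was 2.62 ± 0.21. The wild type signal of FBtr0299879 was significantly above local background on 4 of 4 arrays. It was above the 95th percentile of the negative control spots on 3. FBtr0299961 had 910, 1026, 1310.5 and 1636 in the mutant, and 46, 46, 48.5 and 49 in the wild type. Its wild type values were nearly the same on all arrays, and its log2 ratio was 2.43 ± 0.39. FBtr0077271 had 719.5, 1307, 1330.75 and 1247.75 in the mutant and 47.75, 50, 48.5 and 46.5 in the wild type. Replicate 1 was low in the mutant and not in the wild type, and the log2 ratio was 2.40 ± 0.53.

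FBtr0084941 varied most between arrays. Its mutant intensities were 1751, 441, 1472.5 and 1612, a 3.97-fold range set by replicate 2, and its wild type intensities were 45, 47, 55.5 and 65. The log2 ratio was 2.38 ± 0.63, the largest SD of the 98. A second probe of FBtr0084941 did not show the low replicate: it read 856.75, 863.5, 1227.5 and 1226.5 in the mutant. FBtr0301100 was the other bright transcript with a wide range, at 505.5, 1528, 673.5 and 1214 in the mutant and 49, 62, 65 and 70 in the wild type, for a log2 ratio of 1.78 ± 0.44. On that transcript replicates 2 and 4 were high and replicates 1 and 3 low, and the wild type signal was significantly above local background on 4 arrays.

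FBtr0070833 had mutant intensities of 737.25, 916.25, 973.5 and 1268.25, and wild type intensities of 51.75, 44, 58 and 54. Its log2 ratio was 2.15 ± 0.31, with replicate 1 at 1.69 and the others from 2.28 to 2.32. FBtr0081302 had 904.5, 842, 854 and 1347 in the mutant and 58, 46, 61 and 58 in the wild type, with a log2 ratio of 2.11 ± 0.18. These are the 10 brightest, and 9 of them also held the largest ratios, since the wild type values were all in 1 narrow band. The remaining place among the largest ratios was taken by FBtr0111189, at 466, 531, 637.75 and 896.5 in the mutant and 38, 36, 41.25 and 41.75 in the wild type. Its log2 ratio was 1.87 ± 0.49, a measured mean of 3.66-fold higher in the mutant, with replicate 1 the lowest at 1.20.

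**Figure D2:**
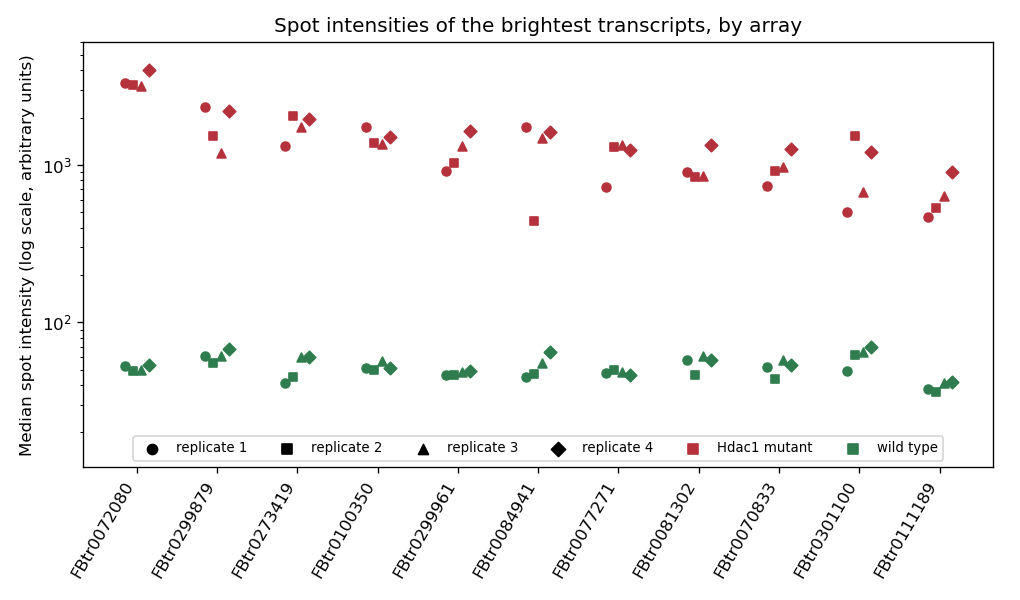
Median spot intensity (log scale, arbitrary units) in the mutant channel (red) and the wild type channel (green) for the 10 transcripts with the highest mutant signal and FBtr0111189, with a marker shape for each of the 4 replicates. Mutant values run from 441 to 4009.5 and wild type values from 36 to 70, and replicate 2 of FBtr0084941 stands below the other mutant values of that transcript.

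The other transcripts were dimmer than the 10 brightest and their ratios smaller. Over the 98, the median log2 ratio was 0.78, from 0.24 to 3.52, beside a median of 0.03 over all targets tested. A measured ratio of at least 2-fold was found for 42 of the 98 (11.2% of all targets tested), of at least 4-fold for 9 (1.62%) and of at least 8-fold for 1. The remaining 56 lay under 2-fold, the smallest of them at 1.18-fold. All 98 had a ratio above 0 on 4 of 4 arrays with this scaling, a direction that the choice of transcripts largely fixes. As many as 3806 other targets had a ratio at or above the median of the 98. A transcript could thus be found in the mutant channel alone with a modest ratio, or raised far more and still be detected in both.

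The wild type channel was seldom empty for these transcripts. Its median intensity over the 98 was 58.25, 51.25, 65.5 and 58.1 on replicates 1 to 4, against 41, 40, 42 and 42 for the 153 negative control spots, which the files mark as such and which all carry 1 probe. The software's weaker mark, for a spot significantly above its local background, was on in the wild type channel on all 4 arrays for 67 of the 98, on 3 arrays for 13, on 2 for 6, on 1 for 8 and on none for 4. In the mutant channel it was on for all 98 on every array. Against the 95th percentile of the negative control spots (50.7 to 65.2 by array), the wild type signal was higher on all 4 arrays for 32 transcripts and on none for 22. The mutant signal of all 98 was above that percentile of its own channel on all 4 arrays. It was above the brightest negative control spot of its channel on all 4 arrays for 9 of the 98, and on 2 arrays for 60. That brightest spot read 450.5, 157, 907 and 215.5 on replicates 1 to 4. The label of transcripts detected only in the mutant thus rests on the stricter mark that chose them, and by the weaker mark it held for 4 of the 98. When the stricter mark counted as on only where every spot of a probe carried it, 77 of the 98 still met the rule. That setting is looser on the wild type side, so a transcript could drop out through the mutant channel only.

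**Figure D3:**
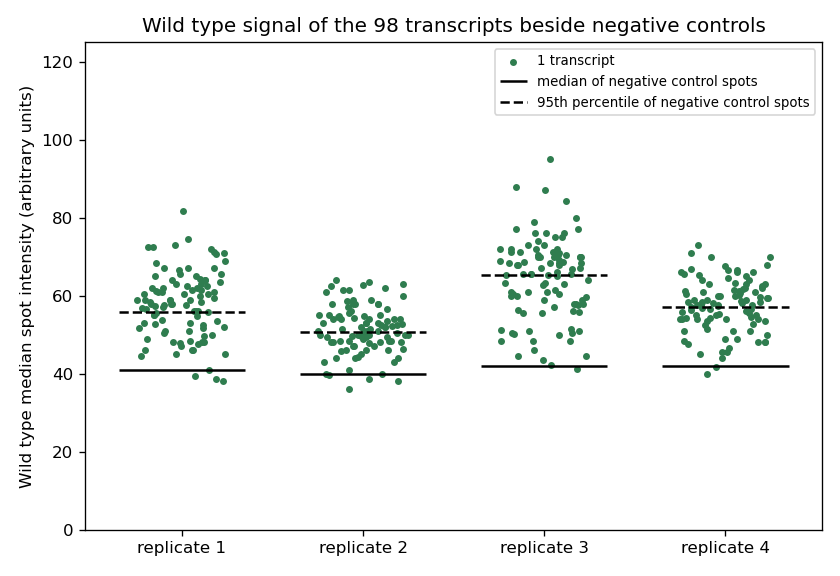
Wild type median spot intensity (arbitrary units) of each of the 98 transcripts on each replicate (green points), with the median (solid line) and the 95th percentile (dashed line) of the 153 negative control spots of that array. Most points lie above the negative control median of 40 to 42, and between 54 and 61 of the 98 lie above the dashed line on each array.

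The 4 transcripts with no significant wild type signal on any array were FBtr0111189, given above, and FBtr0300865, FBtr0085315 and FBtr0078505, which are named here because of that count, after their values were seen. FBtr0300865 had mutant intensities of 620, 420.5, 580.25 and 553.5 and wild type intensities of 39.5, 40, 44.5 and 45.5. Its log2 ratio was 1.74 ± 0.24. FBtr0085315 had 359, 323.5, 345.75 and 404 in the mutant and 48, 40, 50.25 and 45 in the wild type, with a log2 ratio of 1.26 ± 0.24. FBtr0078505 had 292.25, 278.75, 248.5 and 253.5 against 38.5, 39.75, 42.25 and 40, with a log2 ratio of 1.11 ± 0.23. In all 4 the wild type values sat close to the negative control median of the array, and the mutant values of each stayed within 1.92-fold of each other.

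At the other end stood transcripts just inside the rule. The 3 with the highest wild type signal relative to the dimmest spot called well above background were FBtr0074072, FBtr0088662 and FBtr0077508. FBtr0088662 had 227, 218, 297.5 and 296 in the mutant and 74.5, 59, 80 and 66 in the wild type, with a log2 ratio of 0.49 ± 0.26. FBtr0077508 had 222, 196.75, 229.5 and 220.5 against 72.5, 62.75, 77 and 65.25, with a log2 ratio of 0.33 ± 0.11. Both had a wild type signal that was significant on all 4 arrays. The 3 dimmest in the mutant were FBtr0073060 (log2 ratio 0.24 ± 0.16), FBtr0070751 (0.44 ± 0.11) and FBtr0076020 (0.49 ± 0.14). FBtr0073060 had 185.75, 171.5, 189.75 and 223 in the mutant and 60.5, 55, 84.25 and 66.5 in the wild type, with its smallest ratio, 0.04, on replicate 3.

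Just outside the rule, 62 transcripts were well above background in the mutant on 4 arrays and in the wild type on 1, with a median log2 ratio of 0.65. The 3 brightest were FBtr0082901 (2.15 ± 0.13), FBtr0303508 (1.93 ± 0.48) and FBtr0088864 (1.85 ± 0.19). FBtr0082901 had 1216, 1059.5, 1108.25 and 1706.75 in the mutant and 62.25, 56, 65.75 and 73.75 in the wild type, values like those of the bright transcripts inside the rule. Another 29 were on in the mutant on 3 arrays and in the wild type on none, with a median of 0.48. Their 3 brightest were FBtr0078597 (0.99 ± 0.52), FBtr0300506 (0.95 ± 0.36) and FBtr0076119 (1.02 ± 0.54). FBtr0078597 had a mutant intensity of 144 on replicate 1 and of 271.5 to 374 on the others.

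Spread was measured on 2 levels. The 98 probes had 1 spot per array in 35 cases, 2 in 59 and 10 in 4. For the 63 with several spots, the median SD of the log2 mutant signal was 0.18 between spots of an array and 0.27 between arrays. The first rests on 2 spots for 59 probes and the second on 4 array means, so their sizes cannot be compared directly. Highest and lowest mutant intensity differed by a median of 1.40-fold over all 98, and by under 2-fold for 91. The SD of the log2 ratio between arrays had a median of 0.23 over the 98 and of 0.22 over all targets tested. The highest mutant value was on replicate 4 for 41 transcripts and on replicate 3 for 34, and the lowest on replicate 2 for 56. These mutant intensities, and the SD between arrays of the mutant signal, were not scaled between arrays. Over all spots the mutant median was 1624, 1490, 1820 and 1970.5 on replicates 1 to 4, also highest on replicate 4 and lowest on replicate 2. The median log2 ratio of the 98 was 0.46 on replicate 1, 0.90 on replicate 2, 1.01 on replicate 3 and 0.90 on replicate 4.

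The 4 transcripts with 10 spots per array show how the mark behaves within an array, and 3 of them are named for that count alone. FBtr0087399 averaged 864 ± 289, 676 ± 51.2, 677 ± 93.1 and 788 ± 50.1 in the mutant (mean and SD over 10 spots). In the wild type it averaged 81.8 ± 73.1, 49.5 ± 5.35, 79.0 ± 30.6 and 58.2 ± 15.5, with 0 to 3 of 10 spots marked on an array. All 10 mutant spots were marked on every array. FBtr0075461 averaged 316, 285, 298 and 307 in the mutant and 70.8, 52.9, 72.0 and 62.0 in the wild type, with 1 of 10 wild type spots marked on each array. FBtr0084124 averaged 282, 446, 275 and 199 in the mutant, highest on replicate 2, with 1 to 3 wild type spots marked. FBtr0074072 averaged 208, 192, 280 and 243 in the mutant and 67.0, 56.6, 95.2 and 66.8 in the wild type, with 0 to 3 marked. Its spots were uneven on replicate 3, with an SD of 181 in the mutant and 56.2 in the wild type. On the other arrays the SD was 22.1 to 32.6 and 3.79 to 7.61. In each of the 4 transcripts a minority of wild type spots passed the mark, so the transcript counts as not detected there because the mark is averaged over spots.

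The scanner's record of the spots themselves was also set beside that of all spots. Local background in the mutant channel had a median of 50 to 51 around them and of 50.5 to 51 over all spots. The 193 spots were spread over the array, with 21.2% to 31.1% in each of its 4 equal sectors. On each array 0 of them carried a non-uniformity mark, and no spot of the array was saturated (0).

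Scaling decided how large the ratios were. With the log ratio of the scanner software the median of the 98 was 2.32 and FBtr0072080 stood at 6.60, and 93 of the 98 were at or above 2-fold. With plain background subtraction before loess the median was 1.78, and with a normexp offset of 16 it was 1.09. The normexp offset of 50, shared by the main loess run and median centring, adds a constant to both channels, which pulls ratios of dim spots toward 0. Median centring in place of loess gave 0.19, with 66 of the 98 above 0. The 32 below 0 all ranked from 61 to 98 in mutant signal, and the lowest, FBtr0073060, stood at -0.43. The 42 transcripts at or above 2-fold with loess became 18 with median centring. The ratio over all targets moved by far less, from a median of 0.03 with loess to 0.13 with median centring and 0.11 with the scanner software. FBtr0072080 stayed at 3.58 with median centring, FBtr0273419 at 2.72 and FBtr0299879 at 2.52, so these 3 bright transcripts kept their direction and about their size there, while the direction of those 32 rested on the scaling.

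**Figure D4:**
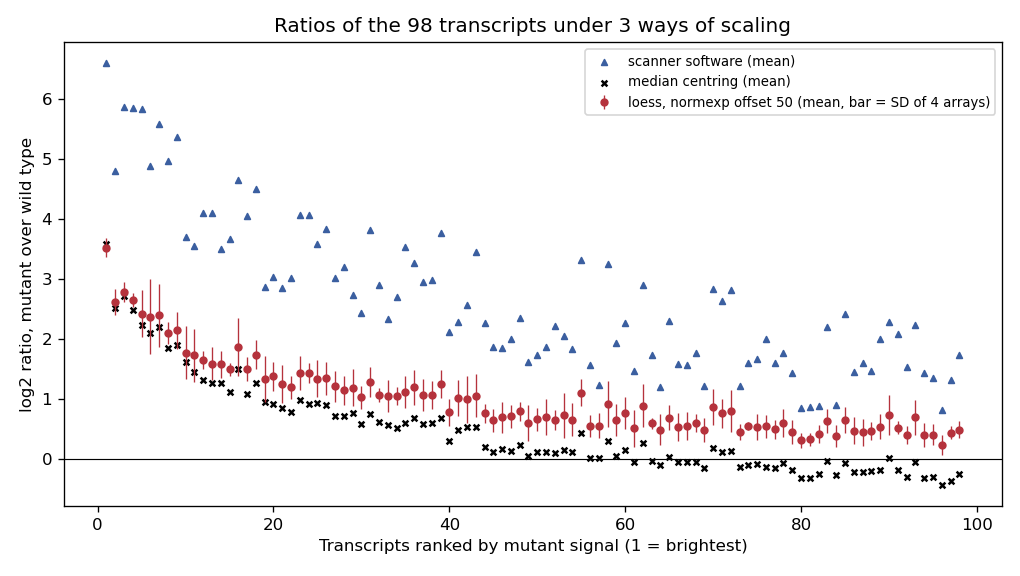
Mean log2 ratio of mutant over wild type for each of the 98 transcripts, ordered on the x axis by mutant signal from the brightest (1) to the dimmest (98), with loess (red, bar is the SD of 4 arrays), the scanner software's ratio (blue) and median centring (black). Loess gives 0.24 to 3.52, the scanner software 0.82 to 6.60, and median centring -0.43 to 3.58 with 32 transcripts below 0.

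Other probes of the same transcripts gave a further reading on the same arrays. They share the larvae, the dyes and possibly part of the target sequence with the first probe, so they are a description too. Of the 98 transcripts 13 (13.3%) had another probe, against 31.3% of all transcripts, and these 13 had 15 other probes in all. By the rule every other probe was dimmer in both channels summed. The first probe also had to meet the rule and the others did not, which favours a larger ratio at the first. Only 1 of the 15 met the rule itself (0.604% of the 5798 other probes on the array did), a probe of FBtr0074788 at a log2 ratio of 0.45 ± 0.21 beside 0.56 at its first. On 6 of the 15 neither channel was well above background on any array, as on 4.85% of all other probes. On 8 the wild type was well above background on at least 1 array (93.7% of all other probes), and on 4 of those on all 4 arrays (88.9%).

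The 3 brightest of these pairs kept a raised ratio and lost the absence from the wild type. The other probe of FBtr0299879 had 1780.5, 1391, 1249 and 1786.5 in the mutant and 79, 64, 88 and 83 in the wild type. That wild type signal was well above background on all 4 arrays, and the log2 ratio was 2.12 ± 0.12, beside 2.62 at the first probe. FBtr0084941 gave 1.52 ± 0.24 at its other probe, with wild type intensities of 81.25, 72, 104.5 and 85.5. FBtr0072651, at 1.58 ± 0.22 on its first probe, gave 0.80 ± 0.16, with the wild type on at all 4 arrays. For these 3 transcripts the wild type larvae therefore had a signal well above background at 1 of 2 probes.

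Most of the dimmer pairs had a far smaller ratio at the other probe. FBtr0304061, the transcript with the most probes, had 1.34 ± 0.31 at the first and 0.12, 0.22 and 0.06 at the 3 others, and at 1 of them the wild type was on at all 4 arrays. FBtr0078006 went from 1.44 ± 0.28 to 0.11 ± 0.12, FBtr0300706 from 1.05 ± 0.15 to 0.09 ± 0.10 and FBtr0113191 from 1.00 ± 0.39 to 0.13 ± 0.15. At these 3 other probes neither channel was well above background, and the other probe had 28.6% to 36.5% of the brightness of the first. FBtr0079810 gave 0.76 at the first and 0.09 at the other, FBtr0072305 gave 0.65 and 0.16, and FBtr0083738 gave 0.70 and -0.31. FBtr0073060 was low at both probes, at 0.24 and 0.17, and FBtr0074788, given above, was also close at both. Neither channel was well above background on any array at the other probes of FBtr0083738 and FBtr0073060, nor at the 0.06 probe of FBtr0304061. Over the 15 other probes the median log2 ratio was 0.13, 13 were above 0 (48.3% of all other probes were) and 2 were at or above 2-fold (9.71% of all other probes were). With median centring that median turned to -0.68, so the direction at the other probes is not settled.

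**Figure D5:**
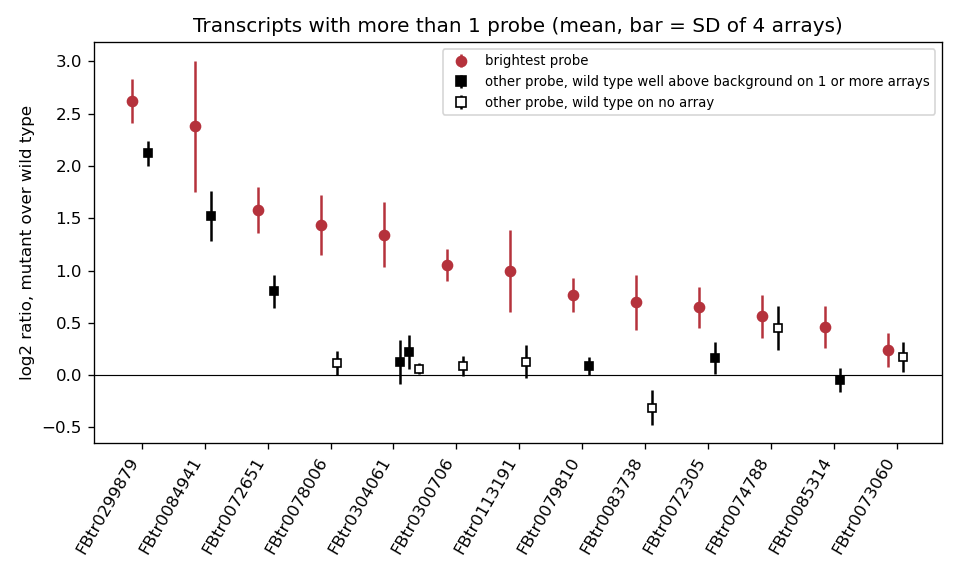
Log2 ratio of mutant over wild type (mean, bar is the SD of 4 arrays) at the brightest probe (red circles) and at each other probe (squares) of the 13 transcripts with more than 1 probe, filled where the wild type was well above background on at least 1 array. The other probes of FBtr0299879, FBtr0084941 and FBtr0072651 lie at 2.12, 1.52 and 0.80, and the remaining 12 lie between -0.31 and 0.45.

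The transcript identifiers were also compared by number. Numbers below 100000 made up 76.5% of the 98 and 77.9% of all transcripts, numbers from 200000 to below 300000 made up 6.12% and 3.32%, and numbers from 300000 upward made up 9.18% and 10.7%. Among the 148 seen in the wild type alone the latter share was 20.9%. The difference between these shares was not tested. FBtr0085314 and FBtr0085315 were the only pair with consecutive numbers, and are named for that. FBtr0085314 had 195, 202.75, 254 and 230.25 in the mutant and 61.25, 56, 70 and 58.5 in the wild type, for a log2 ratio of 0.46 ± 0.20, and a second probe at -0.05. The 2 transcripts thus differed in the wild type channel, which was significant on 4 arrays for FBtr0085314 and on none for FBtr0085315.

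The mirror group of 148 wild type transcripts had measured ratios of the same order. Its median log2 ratio was -0.93, from -4.58 to -0.14, with 59 of 148 at or past 2-fold and 13 at or past 4-fold. The largest measured fold among them was 24.0-fold lower in the mutant, against 11.5-fold higher among the 98. With mutant values raised to the lowest signal well above background, the 24.0-fold became 20.3-fold. The median SD between arrays was 0.29 there and 0.23 among the 98. Since both groups were chosen on the same marks, no test was made between them. Limits of detection were close in the units of the scanner software after its dye normalization, with the dimmest probe called well above background at 24.0 to 27.1 in the wild type channel and at 25.2 to 28.6 in the mutant channel.

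The 73 transcripts outside the rule for named ones, some of which are described above, had mutant intensities from 158.75 to 1028 and wild type intensities from 38 to 88. Their log2 ratios ran from 0.39 to 1.74 with a median of 0.73. They fill the middle of the range, and none of them (0 of 73) reached 4-fold.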

How the data were processed

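Per the file headers and the submitters' processing notes, Agilent Feature Extraction 10.5.1.1 was used on the scanned images. The deposited intensity values are median pixel intensities of each spot and its local background and processed intensities of each channel. The deposited log10 ratios of red over green in the submitters' value table equalled those of the scanner files on all 45109 spots of each array, so that table was not a separate measurement. Direction was taken from the dyes in the labels.

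Medians were background-corrected (normexp, offset 50) and normalized within arrays by loess, control spots at weight 0, with limma 3.58.1 in R 4.3.3. The 27 to 83 non-uniform spots per array were left out of ratios. Spots of a probe were averaged. A target was tested where either channel of its probe passed the well-above-background mark on 3 arrays or more, so the 98 transcripts passed through the mutant channel. limma's lmFit and eBayes tested the mean ratio against 0, two-sided. The fit was also run on simulated ratios, with independent noise and few changed targets, unlike these data. That run cannot vouch for the calls made here. Bounds used channels after Aquantile, with the wild type raised to the lowest signal well above background, and raised 1 value of 392, so 97 of 98 bounds equal the measured folds.

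The arrays are biological replicates per the labels, and their number limits the precision. Transcripts and comparisons were chosen with earlier results of these data known. Those named are the 10 highest in mutant signal, the 10 largest bounds, up to 10 with the most other probes, 3 at each edge of the rule, and others where the text says so. Lists of genes by role could not be applied, since no transcript of the 98 was named. No sequence was used here.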

Additional observations from a re-analysis of the deposited data

Results flagged for a closer look

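In the log2 ratio of 2 of the 25 named transcripts, a single array of the 4 lay far from the rest, where chance gives about 1 in 20, or 1.25. Replicate 1 was the low array in both. FBtr0070833 stood at 1.69 on replicate 1 and from 2.28 to 2.32 on the others. FBtr0113191 stood at 0.41 on replicate 1 and from 1.18 to 1.21 on the others. Replicate 1 also had the lowest median over the 98 transcripts, 0.46.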

How the results depend on the processing

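The count of 98 transcripts became 25 with the weaker mark of a significant signal in both channels, of which 4 were among the 98, and 198 when the mutant had to be on in at least 3 arrays and the wild type in at most 1. It became 22 when the wild type had to lie at or below the 95th percentile of negative control spots, an alternative chosen after seeing the data. With 1 replicate left out it ran from 114 to 127. Each such run set the same demand on fewer arrays, which is looser, so nearly all of the 98 stayed by design (97 or 98). Other probe choices and spot rules gave 86 to 132, and the 128 found when all spots had to carry the mark shared 77 with the 98. That last rule applied to both channels and was looser on the wild type side. The median log2 ratio of the 98 was 0.19 with median centring, 2.32 with the scanner software's ratio, 1.78 with background subtraction and 1.09 with an offset of 16, and ran from 0.71 to 0.88 with 1 replicate left out. At the other probes the median of 0.13 turned to -0.68 with median centring and was 0.31 with the scanner software's ratio and 0.43 with background subtraction (0.10 to 0.17 with 1 replicate left out). Median centring also turned FBtr0088662 to -0.092, FBtr0074072 to -0.31, FBtr0077508 to -0.31, FBtr0073060 to -0.43, FBtr0070751 to -0.36 and FBtr0076020 to -0.25. FBtr0085314, described above but not among the 25 named by rule, turned to -0.18. The cause was not tested. None of the 25 named transcripts changed sign with the other 3 scalings (0 of 25 each) or without any 1 replicate. Counts of targets called higher and lower over the whole table stayed within 1.5 times of 8421 and 8159 in each alternative run. No paired analysis was possible because there is 1 group of arrays, beyond the pairing of both genotypes that the ratio within each array already holds. The wild type values of the 98 lie near background, which limits their ratios.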
